A study of Mus musculus with 12 samples.

Results

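Goblet cells are the mucus-secreting cells of the intestinal epithelium, and the genes described here encode their secreted products and the machinery that makes them: Muc2, Tff3, Clca1, Fcgbp, Agr2, Spink4, Zg16 and Spdef. They were chosen by name, and every probe set that the platform annotation gives to one of these symbols was taken. Of the 8 genes, 7 were measured, by 11 of the 22626 probe sets tested. No probe set carried the symbol Muc2, so the gel-forming mucin itself was not analysed here.

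The mucus gel of the gut is built on a large secreted mucin that is folded in the endoplasmic reticulum, glycosylated in the Golgi and stored in granules. Goblet cells release it together with smaller proteins that bind to, cross-link or process the gel. The lineage arises from crypt progenitors that escape Notch signalling, and Spdef is a transcription factor that drives the last steps of its maturation.

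The arrays were hybridised with jejunal RNA of male C57BL/6 mice aged 6 to 8 weeks. The animals were wild-type or POR-null, the latter lacking cytochrome P450 reductase, which passes electrons to microsomal cytochromes P450. The published study of this line describes the deletion as hepatic, and the tissue of the deletion is not named in the labels. All mice spent 14 days on a soya-free powdered RM3 diet, and then had either that diet (control) or the same diet with the plant flavonol quercetin, 7 mg per mouse, for 24 h before they were killed. Each of the 4 groups had 3 pools, and each pool combined RNA from the scraped epithelium of 3 mice. Values are log2 intensities of one-colour Affymetrix 430A arrays, so a difference of 1 is a doubling of signal. A level is given for a probe set against itself across pools, since probe sets differ in how brightly they report. In pooled tissue, fewer goblet cells and less RNA per goblet cell cannot be told apart.

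Array medians lay between 5.94 and 6.01, and the lowest correlation between any pair of arrays was 0.989. The presence of intestinal epithelium was checked on 15 measured enterocyte markers, which were all above the median probe set (94.1st percentile of mean level or higher). That check does not tell the jejunum from other segments. Por itself was not analysed here, and no check of genotype against it was made. Smooth muscle markers, averaged after centring each gene over the 12 pools, reached 0.78 in the third wild-type control pool, while the first pools of the POR-null control and POR-null quercetin groups stood at 0.51 and 0.19, and the markers lay between -0.27 and 0.04 in the other 9. Distal intestinal markers ran from -0.69 in wild-type control pool 1 to 0.77 in wild-type quercetin pool 3. The 3 wild-type quercetin pools stood at 0.00, 0.55 and 0.77 on that distal score, the wild-type control pools at -0.69, -0.49 and 0.13, the POR-null control pools at -0.04, 0.09 and 0.32, and the POR-null quercetin pools at -0.36, -0.34 and 0.07.

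The promoters of 3 of the 7 measured genes were in the reference table, and they are shown because they belong to the folding enzyme, the lineage factor and one of the secreted proteins whose values follow. Each is the 250 bases before the annotated start of the gene, 5′ to 3′ on the gene's strand, from RefSeq on GRCm38.p6. Capitals mark matches, on either strand, to 5 searched motifs:
Fcgbp (chr7:28070986-28071235, + strand): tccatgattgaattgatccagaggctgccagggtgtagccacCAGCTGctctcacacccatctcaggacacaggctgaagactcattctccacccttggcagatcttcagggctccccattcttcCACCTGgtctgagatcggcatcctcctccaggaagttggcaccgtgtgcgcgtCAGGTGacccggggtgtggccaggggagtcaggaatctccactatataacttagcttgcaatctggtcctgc
Agr2 (chr12:35992675-35992924, + strand): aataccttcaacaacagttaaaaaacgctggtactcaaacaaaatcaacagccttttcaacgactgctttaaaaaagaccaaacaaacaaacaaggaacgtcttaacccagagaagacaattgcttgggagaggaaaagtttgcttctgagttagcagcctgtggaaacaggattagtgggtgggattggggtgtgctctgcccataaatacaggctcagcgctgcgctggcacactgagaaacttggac
Spdef (chr17:27728952-27729201, - strand): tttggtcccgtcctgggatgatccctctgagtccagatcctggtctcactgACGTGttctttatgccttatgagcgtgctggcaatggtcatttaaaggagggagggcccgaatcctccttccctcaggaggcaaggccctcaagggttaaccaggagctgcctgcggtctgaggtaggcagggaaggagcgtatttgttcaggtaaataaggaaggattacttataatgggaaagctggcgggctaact
The motifs were TATAAA (a form of the TATA box), CAGNTG (an E-box, the kind of site bound by Atoh1) and CCGGAT (an Ets-type site, the family of Spdef). The others were ACGTG (the core of an Xbp1 site) and TGTTTAC (a forkhead site). Fcgbp had 3 matches to CAGNTG, starting at positions -208, -125 and -72 from the gene's start, and 44.8% of 32851 promoters of the same length had at least 1. Spdef had 1 match to ACGTG, starting at position -199, against 16.6% of promoters. The stretch of Agr2 held none of the 5. The searched forms of the TATA box, the Ets-type site and the forkhead site had no match in the 3 stretches. They matched in 12.4%, 4.94% and 3.17% of promoters. Other forms of these sites were not searched, so their absence from the 3 stretches is not shown. A match is a run of letters and says nothing of binding.

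Tff3, Fcgbp and Zg16 were the steadiest of the 7 genes from pool to pool. They were also the brightest of the 7, at the 99.67th percentile of mean level or higher. The part of brightness in their spread was not tested. Tff3, a trefoil peptide secreted with mucus, read 12.96, 12.94 and 13.06 in the wild-type control pools, 13.02, 12.95 and 13.00 in the wild-type quercetin pools, 13.12, 12.85 and 12.92 in the POR-null control pools, and 12.98, 13.09 and 13.11 in the POR-null quercetin pools. Its groups overlapped in every pairing, and the lowest and highest of the 12 pools, both POR-null control pools, differed by 1.21-fold. Fcgbp, an IgG Fc-binding mucus protein, ranged from 12.76 in POR-null control pool 2 to 12.99 in POR-null quercetin pool 2, a 1.17-fold range. Its group means were 12.84 ± 0.05 (SD, n = 3) in wild-type control, 12.88 ± 0.07 in wild-type quercetin, 12.86 ± 0.09 in POR-null control and 12.95 ± 0.06 in POR-null quercetin pools. The first 3 means lay within 1 SD of each other, and the POR-null quercetin pools, the highest in mean, overlapped with the other groups.

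Zg16, a lectin-like protein of the mucus layer that binds bacterial cell walls, was read by 3 probe sets. Its representative one (the brightest not of a cross-hybridising type) gave means of 12.16 ± 0.13 (SD, n = 3), 12.18 ± 0.08, 12.17 ± 0.13 and 12.21 ± 0.05 in the wild-type control, wild-type quercetin, POR-null control and POR-null quercetin pools. All 12 pools lay between 12.06 and 12.31. The other probe sets ranged from 13.14 to 13.35 and from 13.07 to 13.35, and the 3 correlated with each other across the 12 pools at r = 0.75 to 0.84, as a description.

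Clca1, a secreted metalloprotease that acts on the mucus gel, was lowest in a single control pool. It read 10.98, 11.75 and 11.52 in wild-type control, 11.58, 11.41 and 11.69 in wild-type quercetin, 11.70, 11.52 and 11.74 in POR-null control, and 11.70, 11.55 and 11.60 in POR-null quercetin pools. Outside wild-type control pool 1, the other 11 pools spanned 11.41 to 11.75. A second Clca1 probe set was dim, between 4.24 and 4.72. It read 4.24 in wild-type quercetin pool 2 and 4.27 in wild-type control pool 1, its lowest values, and followed the first probe set across the 12 pools at r = 0.61.

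Spink4, a Kazal-type protease inhibitor abundant in goblet cells, had the widest range of the 7 genes. It read 10.18, 10.42 and 10.94 in wild-type control, 10.43, 10.82 and 10.85 in wild-type quercetin, 10.46, 10.21 and 9.96 in POR-null control, and 10.31, 10.73 and 10.23 in POR-null quercetin pools. The lowest pool was POR-null control and the highest wild-type control, a 1.97-fold range, and the groups overlapped. Wild-type control pool 3, the highest, was also the pool highest in smooth muscle markers, whose part in the value was not tested.

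Agr2, a protein disulfide isomerase that goblet cells need to fold the mucin in the endoplasmic reticulum, had higher means in the quercetin pools. It read 8.98, 8.66 and 9.27 in wild-type control, 9.10, 9.19 and 9.34 in wild-type quercetin, 8.59, 9.12 and 8.69 in POR-null control, and 8.92, 9.20 and 9.34 in POR-null quercetin pools. The highest control pool of each genotype lay above the lowest quercetin pool, so the groups overlapped. Ordered by mean, wild-type quercetin was at 9.21 ± 0.12 (SD, n = 3), POR-null quercetin at 9.15 ± 0.21, wild-type control at 8.97 ± 0.31 and POR-null control at 8.80 ± 0.28, and no neighbours in that order differed beyond their spread. A second Agr2 probe set, dim at 3.15 to 3.92, followed the first across the 12 pools at r = 0.78. Its means were 3.55 in wild-type control, 3.48 in wild-type quercetin, 3.30 in POR-null control and 3.51 in POR-null quercetin pools, so it was not higher on quercetin in wild-type mice.

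Spdef, the lineage transcription factor, was measured at a moderate brightness. It read 6.98, 6.92 and 7.17 in wild-type control, 7.02, 7.25 and 7.26 in wild-type quercetin, 7.03, 6.91 and 7.01 in POR-null control, and 7.00, 7.23 and 7.22 in POR-null quercetin pools. Pools 2 and 3 of both quercetin groups were above every control pool, and pool 1 of both was not.

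**Figure D1:**
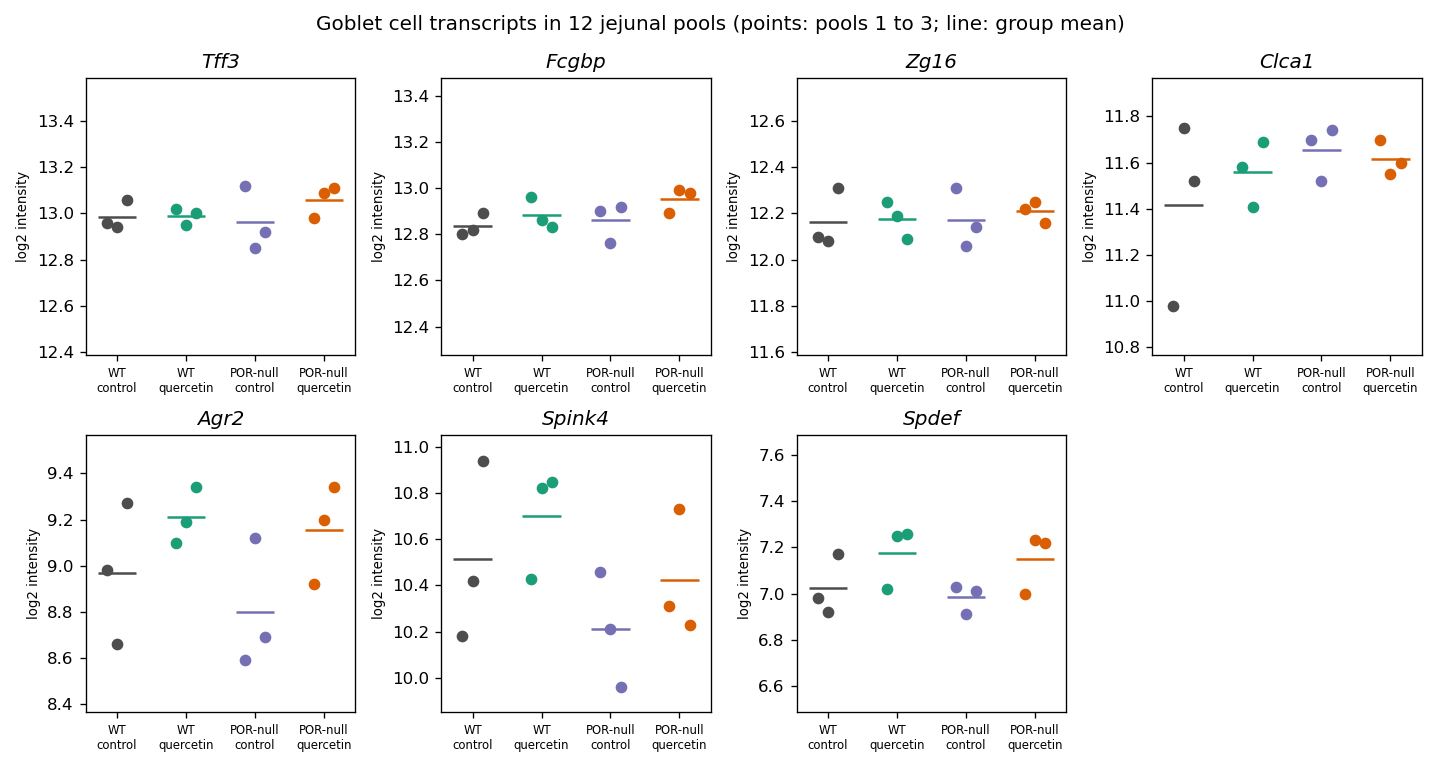
Log2 intensity (vertical axis) of the representative probe set of each of the 7 measured genes in 12 pools, by group (horizontal axis); points are pools and lines are group means. All panels overlap between groups, with wild-type control pool 1 low for Clca1 at 10.98.

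The spread between pools of one group set the 7 genes apart from each other. Pooled over the 4 groups, the within-group SD was 0.09 for Tff3, 0.07 for Fcgbp, 0.10 for Zg16 and 0.12 for Spdef, and 0.22 for Clca1, 0.24 for Agr2 and 0.29 for Spink4, against a median of 0.12 over all probe sets. Fcgbp was at the 5.4th percentile of that spread over all probe sets, and Spink4 at the 97.7th.

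**Figure D2:**
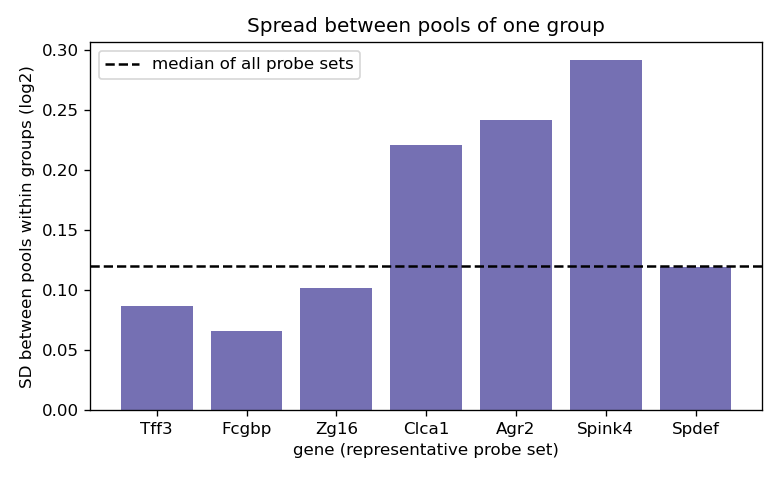
Pooled within-group SD in log2 units (bars, vertical axis, from 0) of the 7 genes, with the median of all probe sets as a dashed line. Clca1, Agr2 and Spink4 stand above the line of 0.12, Tff3, Fcgbp and Zg16 below it, and Spdef at it.

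The first comparison asked what 24 h of quercetin did in wild-type mice. No goblet cell gene passed the test. The differences were 0.24 ± 0.16 (SE) for Agr2, 0.19 ± 0.19 for Spink4, 0.15 ± 0.10 for Spdef, 0.14 ± 0.15 for Clca1, 0.05 ± 0.08 for Fcgbp, 0.01 ± 0.09 for Zg16 and 0.003 ± 0.08 for Tff3. By limma over all probe sets, 0 of the 11 probe sets had an adjusted p under 0.05, against 0.0133% of all probe sets, and 0 had an unadjusted p under 0.05, against 8.72%. The smallest adjusted p among them was 0.676, for Spdef. All 7 differences, of representative probe sets, were above 0 (5 of 7 with each array centred on its median, which put Tff3 at -0.03 and Zg16 at -0.02), where 56.8% of all genes were. The second probe sets of Agr2 and Clca1 stood at -0.06 and -0.02, and the other Zg16 ones at -0.06 and 0.01. The median over the 7 genes was 0.14, against 0.02 over all genes, and leaving out 1 pool gave 0.02 (without wild-type control pool 1) to 0.20 (without wild-type control pool 3). On leaving out 1 pool, Agr2 ran from 0.085 (without wild-type control pool 2) to 0.39 (without wild-type control pool 3), and Spink4 from 0.02 (without wild-type control pool 1) to 0.40 (without wild-type control pool 3). Spdef ran from 0.10 to 0.23 on the same terms. The difference of Clca1 was -0.08 without wild-type control pool 1. With the distal-minus-proximal marker score as a covariate, the median was -0.06, with Agr2 at -0.11, Spink4 at -0.25 and Spdef at -0.10.

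In POR-null mice, quercetin again left every gene short of the test. Agr2 had the largest difference, 0.35 ± 0.16 (95% interval 0.01 to 0.69), a 1.28-fold higher mean, with an unadjusted p of 0.0427 and an adjusted p of 0.995 by limma. Spink4 differed by 0.21 ± 0.19, Spdef by 0.17 ± 0.10, Tff3 by 0.10 ± 0.08 and Clca1 by -0.04 ± 0.15. Of the 11 probe sets, 0 were called by limma, against 0% of all probe sets, and 1 had an unadjusted p under 0.05, against 4.02%. The median over the 7 genes was 0.10, against 0.00 over all genes, 6 of 7 lay above 0, where 48.9% of all genes did, and dropping pool 2 of the POR-null controls gave a median of 0.04, dropping pool 1 of them 0.18. Agr2 was 0.25 when that pool 1 was dropped, 0.51 when that pool 2 was, and Spink4 was 0.06 without POR-null quercetin pool 2 and 0.34 without POR-null control pool 1.

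Averaged over both genotypes, Agr2 was 0.30 ± 0.11 higher on quercetin, a 1.23-fold difference, with an unadjusted p of 0.019 and an adjusted p of 0.571 by limma. The second, dim Agr2 probe set differed by 0.07 ± 0.11 (unadjusted p = 0.509), and by -0.06 in wild-type and 0.21 in POR-null mice. With the distal-minus-proximal score as a covariate, the average for Agr2 was 0.16. Spdef was 0.16 ± 0.07 higher, 1.12-fold, with an unadjusted p of 0.0346 and an adjusted p of 0.621. These 2 were the 2 of 11 probe sets with an unadjusted p under 0.05, against 7.82% of all probe sets, and 0 were called, against 0.00884%. With the same covariate, the average for Spdef was 0.06. Both genes are singled out here because of their values. The 2 genotypes' quercetin differences were not called different for any of the 11 probe sets (0% of all probe sets), and 0 had an unadjusted p under 0.05, against 5.04%. Over the representative probe sets of the 7 genes the interaction ran from -0.18 for Clca1 to 0.11 for Agr2, and the second Agr2 probe set gave 0.27 ± 0.22.

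The genotype comparisons also called no goblet cell gene. On the control diet, Spink4 was -0.30 ± 0.19 in POR-null relative to wild-type pools and Clca1 was 0.24 ± 0.15, while the other 5 lay between -0.17 and 0.02. The Clca1 value was 0.02 without wild-type control pool 1. The Spink4 value was -0.09 when pool 3 of the wild-type controls was dropped, -0.47 when their pool 1 was, and -0.55 with the distal-minus-proximal covariate. Of the 11 probe sets, 0 were called by limma (0% of all) and 0 had an unadjusted p under 0.05 (6.09% of all). On quercetin, Spink4 was -0.28 ± 0.19 and the other 6 lay between -0.06 and 0.07, with 0 called (0% of all) and 0 at an unadjusted p under 0.05 (3.88% of all). The Spink4 value on quercetin was -0.18 without POR-null quercetin pool 3, -0.43 without POR-null quercetin pool 2 and 0.01 with the covariate. Averaged over diets, Spink4 was -0.29 ± 0.13 (95% interval -0.57 to -0.01), with an unadjusted p of 0.0452 and an adjusted p of 0.994. It was the 1 probe set of 11 with an unadjusted p under 0.05, against 5.01% of all, and 0 were called, against 0%. Without wild-type control pool 3, the highest in smooth muscle markers, the Spink4 value was -0.18.

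Over all 7 comparisons, 0 of 77 tests of the 11 probe sets were called and 4 had an unadjusted p under 0.05. In the 4 comparisons of 3 pools with 3, no probe set of these genes had groups that did not overlap, where 11.6% (quercetin, wild-type), 9.06% (quercetin, POR-null), 9.44% (genotype, control diet) and 9.18% (genotype, quercetin) of all probe sets did. The 95% intervals show what size of change the data leave possible. For quercetin they reached from 1.16-fold lower to 1.5-fold higher in wild-type mice and from 1.28-fold lower to 1.62-fold higher in POR-null mice. For genotype they reached from 1.63-fold lower to 1.47-fold higher on the control diet and from 1.60-fold lower to 1.30-fold higher on quercetin. These are the widest bounds over the representative probe sets of the 7 genes in the main fit. The dim second probe sets reached lower for quercetin, to a log2 bound of -0.39 for Agr2 in wild-type mice and -0.40 for Clca1 in POR-null mice.

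**Figure D3:**
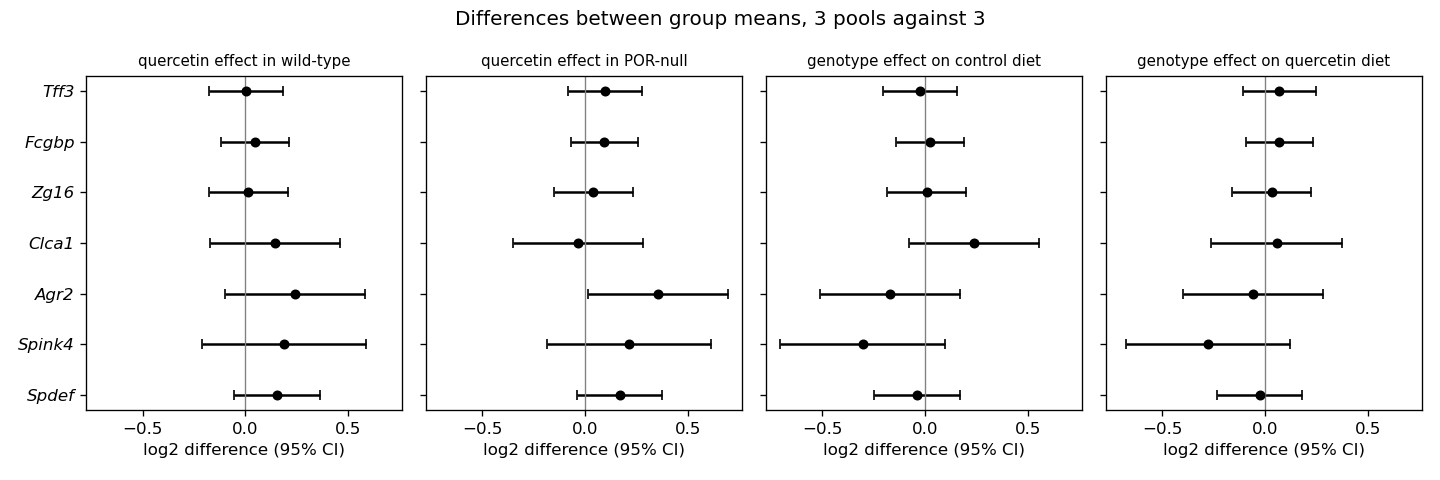
Differences between group means in log2 units (horizontal axis, points) with 95% intervals of the limma fit (bars) for the 7 genes, 3 pools against 3 in each panel. All intervals cross 0 except that of Agr2 for quercetin in POR-null mice, 0.01 to 0.69, whose adjusted p is 0.995.

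Companion genes of the goblet cell pathway gave no call either. Of 26 measured further goblet cell genes (32 listed), 0 passed the adjusted test in any of the 7 comparisons. Among them, Guca2a, the precursor of the peptide guanylin, differed by 0.25 ± 0.10 for quercetin in wild-type mice. Reg4, also listed as an enteroendocrine marker, differed by -0.53 ± 0.21 in the same comparison. Sytl2, a granule-docking protein, differed by 0.31 ± 0.09 for quercetin in POR-null mice. The list's median was 0.05 for quercetin in wild-type mice (3 of 26 at an unadjusted p under 0.05) and 0.07 in POR-null mice (3 of 26). Over all probe sets, 8.72% and 4.02% were at an unadjusted p under 0.05 in these comparisons, and the counts of the lists that follow stand against the same shares. Of 23 measured mucin glycosylation genes (28 listed), 0 passed, with medians of -0.08 and -0.03 in the same 2 comparisons and 5 and 3 genes at an unadjusted p under 0.05. St3gal4, a sialyltransferase, had the largest difference of those named, -1.23 ± 0.37 for genotype on quercetin with an adjusted p of 0.949.

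Of the 25 regulators of the secretory lineage, 0 passed in any comparison, with medians of 0.06 and 0.06 for quercetin in the 2 genotypes and 3 and 1 genes at an unadjusted p under 0.05. Cdx2, a caudal homeobox factor of intestinal identity, was 0.71 ± 0.16 higher in POR-null than in wild-type mice on quercetin, with an adjusted p of 0.424. Of the 30 folding and secretion genes of the endoplasmic reticulum, where Agr2 is one, 0 passed, with medians of -0.04 and 0.03 for quercetin and 1 and 2 genes at an unadjusted p under 0.05. Of 12 measured genes of the type 2 response (14 listed), where Clca1 is one, 0 passed, and 1 and 1 had an unadjusted p under 0.05 for quercetin. Itln1, an intelectin, differed by 0.66 ± 0.23 in POR-null mice, with an adjusted p of 0.995.

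Most pairs of the 7 genes correlated above 0, and no pair passed a test. After each group's mean was removed, 17 of 21 pairs had a correlation above 0 over the 12 pools. The strongest was Tff3 with Zg16 (r = 0.72, rho = 0.66, exact permutation within groups, two-sided p = 0.049, adjusted over 21 pairs 0.334), and r was 0.48 without the 2 pools farthest from the median. The lowest was Clca1 with Agr2, at r = -0.34.

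Enterocyte markers ran opposite to the goblet cell genes from pool to pool. The mean of the 7 genes had r = -0.77 and rho = -0.80 with the mean of the 15 enterocyte markers over the 12 pools, each relative to its group mean, as a description. The mean of the 7 genes had r = -0.76 with proximal markers, 0.73 with smooth muscle markers and 0.65 with distal markers over the same pools. Without the 2 pools farthest from the median, these were -0.89 for enterocyte, -0.82 for proximal, 0.36 for smooth muscle and 0.29 for distal markers. The part of segment content in the enterocyte relation was not tested, and for Spdef alone r was -0.93 without the 3 arrays highest in smooth muscle markers. Relative to its group mean, the enterocyte score was highest in wild-type quercetin pool 1, at 0.12, and lowest in POR-null control pool 1, at -0.11, where Spdef stood at -0.16 and 0.05. Each of the 7 genes alone had r below 0 with it, from -0.85 for Spdef to -0.05 for Clca1. For Spdef the relation had rho = -0.87 and an exact permutation p of 0.00077, the smallest that 1296 relabellings within groups can give, and an adjusted p of 0.0324 over 42 relations of the 7 genes with 6 marker lists. It was r = -0.79 without the 2 pools farthest from the median of Spdef.

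That adjusted p understates the search behind it. The enterocyte list entered the 42 relations after the mean of the 7 genes had been seen to track it, and 94 relations were computed in all, counting those between the genes, those of their mean and an earlier, smaller set that was replaced; the p times 94 is 0.0725. Among 16 alternatives added after seeing the data, r stayed between -0.93 and -0.77, and 15 of the 16 had an adjusted p of 0.05 or more. With 11 pools, 432 relabellings allow no p under 0.00231, which adjusts to 0.0972 for a relation that alone reaches it, so leaving out a pool could not have passed. Without the 3 arrays highest in smooth muscle markers, the exact permutation p of 0.0208 was likewise the smallest that the relabellings allow. These alternatives therefore cannot show a loss of the relation. Of the other relations, Spdef with proximal markers (r = -0.85, exact permutation adjusted p = 0.162), Spink4 with enterocyte markers (r = -0.81, adjusted p = 0.162) and Agr2 with the secretory genes of the endoplasmic reticulum (r = 0.82, adjusted p = 0.253) came next. The enterocyte and proximal lists share 2 genes. Agr2 is itself one of the genes averaged in the endoplasmic reticulum list, so that relation is partly of Agr2 with itself.

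**Figure D4:**
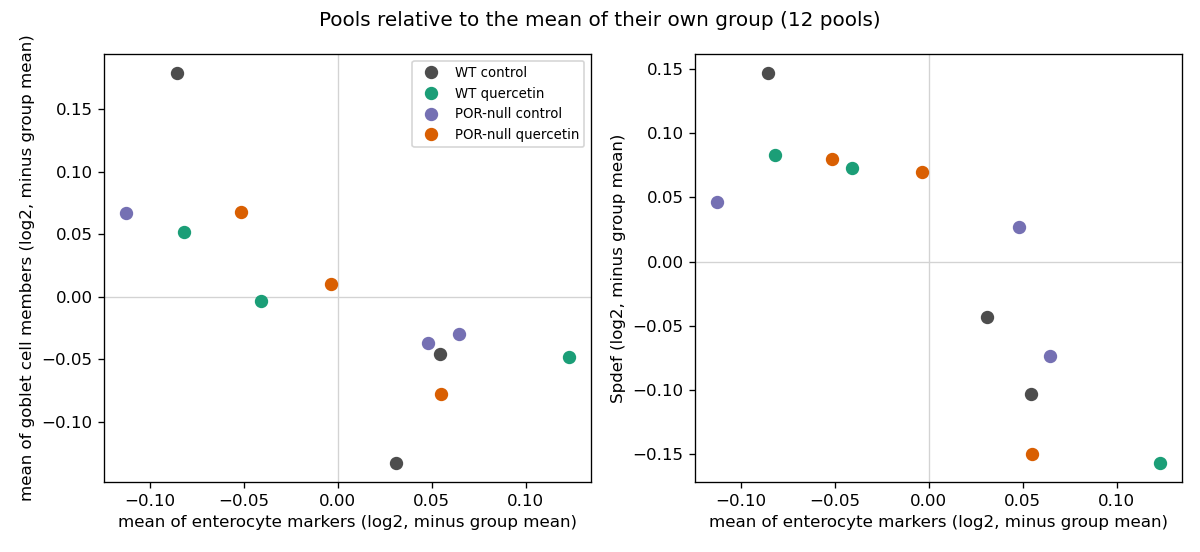
Mean of the 7 goblet cell genes (left, vertical axis) and Spdef alone (right, vertical axis) against the mean of 15 enterocyte markers (horizontal axes), in log2 units relative to each group's mean, with 12 pools as points coloured by group. Pools higher in enterocyte markers lie lower in both panels, at r = -0.77 and r = -0.85.

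Among 7171 genes with a brighter than median probe set, those whose levels followed the mean of the 7 genes most closely over the 12 pools were Mrrf (r = 0.89), Pycard (0.86), Tut1 (0.86), Stambpl1 (0.86), Paics (0.85), L1cam (0.82), Mthfd1 (0.81) and Eprs (0.80). For single genes the closest were Atp1b3 with Agr2 (r = 0.92), H2ax with Spdef (0.91), Eif3i with Spink4 (0.90), Cenpm with Fcgbp (0.89), Ubr4 with Zg16 (0.86), Srsf2 with Tff3 (0.80) and Tfcp2l1 with Clca1 (0.79). These are the highest of the correlations searched over 12 pools and are given as a description.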

How the data were processed

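RNA of 12 jejunal pools was hybridised to 1 array each. The authors deposited a table of log2 intensity for each probe set. MAS5 and RMA stand in the submitters' processing notes with no role, and which of them produced the table is, like any genome build, not given in the sources used here. No further normalisation was applied, since the arrays had one scale. Of 22690 probe sets, 64 controls were left out. The platform annotation gave 1 symbol to 20380, several to 691 and none to 1555. Each gene is shown by the brightest of its probe sets that carry 1 symbol, other than cross-hybridising types where there was a choice.

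The limma package (3.58.1, R 4.3.3) fitted a mean for each group over the 12 arrays together, with residual degrees of freedom of 8 and prior ones of 6.75, for 7 contrasts and Benjamini-Hochberg adjustment over 22626 probe sets, and called at an adjusted p under 0.05. The script was tested on simulated data. Replicates are pools of different mice. Same-numbered pools of different groups deviated with correlations of -0.14 to 0.19, with 2 of 18 over 0.1, so numbers were not taken to pair samples. Correlations used exact permutation within groups. Figures used Python 3.11.15 and matplotlib 3.10.9.

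The members and lists were chosen with earlier results of these data known. Named companion genes are, per list and comparison of 2 groups, those past the test or else up to 2 with the smallest p; only some of these are printed. Like-pattern genes are the 8 closest to the members' mean and the closest for each member. The members are described by every probe set. Promoters matched 3 of 7 measured members.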

Additional observations from a re-analysis of the deposited data

Results flagged for a closer look

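The Zg16 probe set of the type most open to cross-hybridisation (its name ends in _x_at) differed by -0.057 for quercetin in wild-type mice and by 0.050 in POR-null mice, and the 3 quercetin pools lay below the control mean in wild-type and above it in POR-null mice. The difference between the 2 genotypes was tested by the limma interaction, 0.11 ± 0.12 (SE), and was not called (adjusted p = 0.972). The other 2 Zg16 probe sets did not show opposite sides in every pool.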

How the results depend on the processing

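No probe set of the goblet cell genes passed the adjusted threshold under any of the 23 alternatives of a comparison of 2 groups or the 22 of the others, and of 1106 values of the 49 single-gene results, 0 passed (smallest adjusted p 0.372) and 75 had the opposite sign, by at most 0.25. The cause of these changes was not tested. With the segment score as a covariate the opposite signs were, for quercetin in wild-type mice, Tff3 -0.063, Agr2 -0.11, Spink4 -0.25, Zg16 -0.012 and Spdef -0.10, for genotype on control diet Zg16 -0.00774, and for genotype on quercetin Agr2 0.18, Spink4 0.0076 and Spdef 0.14. Without the 3 arrays highest in smooth muscle markers they were Agr2 0.085 and Spdef 0.010 (genotype, control diet), Agr2 0.060 and Spdef 0.048 (genotype, quercetin), Agr2 -0.025 and Spink4 -0.0050 (interaction), and Agr2 0.073 and Spdef 0.029 (average genotype). Array weights gave Tff3 0.00438 (genotype, control diet) and Spink4 -0.067, Zg16 -0.0040 and Spdef -0.019 (interaction). Averaging a gene's probe sets gave Zg16 -0.011 (quercetin, wild-type), Zg16 -0.021 (genotype, control diet) and Clca1 -0.00417 (average quercetin). Median centring gave Tff3 -0.033 and Zg16 -0.023 (quercetin, wild-type) and Zg16 -0.010 (genotype, control diet), and quantile normalization Zg16 -0.00181 (interaction). Leaving out 1 pool turned 24 of the single-gene results at least once. For quercetin in wild-type mice, Tff3 -0.0200 to 0.0400, Clca1 -0.0750 to 0.310 and Zg16 -0.0283 to 0.0867. For quercetin in POR-null mice, Clca1 -0.103 to 0.00667 and Zg16 -0.0150 to 0.110. For genotype on control diet, Tff3 -0.102 to 0.0333, Fcgbp -0.00667 to 0.0733, Zg16 -0.0633 to 0.0800 and Spdef -0.0917 to 0.0333. For genotype on quercetin, Clca1 -0.0183 to 0.122, Agr2 -0.150 to 0.0600, Zg16 -0.0100 to 0.0700 and Spdef -0.105 to 0.0483. For the interaction, Clca1 -0.347 to 0.0383, Fcgbp -0.00333 to 0.0850, Agr2 -0.0367 to 0.273, Spink4 -0.187 to 0.193, Zg16 -0.0467 to 0.0967 and Spdef -0.0650 to 0.0883. For average quercetin, Clca1 -0.0558 to 0.137 and Zg16 -0.000833 to 0.0633. For average genotype, Tff3 -0.0158 to 0.0517, Zg16 -0.0150 to 0.0567 and Spdef -0.0725 to 0.00417.

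The median over the 7 genes for quercetin in wild-type mice was 0.063 with a gene's probe sets averaged and -0.063 with the segment covariate, and 0.020 to 0.20 when 1 pool was left out. For quercetin in POR-null mice it was 0.22 without the 3 arrays and 0.043 to 0.18 without 1 pool. With the segment covariate it was 0.11 for genotype on quercetin and 0.17 for the interaction. The count of all probe sets called for quercetin in wild-type mice, 3, was 8 with the replicate block, 5 with the mean per gene, 0 with the segment covariate, 15 without the 3 arrays and 0 to 23 without 1 pool. For genotype on control diet, 0 was 0 to 24 without 1 pool. For genotype on quercetin, 0 was 24 with only the groups compared, 1 with the segment covariate and 0 to 19 without 1 pool. For the interaction, 0 was 1 with the segment covariate and 0 to 2 without 1 pool. For average quercetin, 2 was 3 with the replicate block, 1 with quantile normalization, 4 with trend and robust variance, 1 with the segment covariate, 6 without the 3 arrays and 1 to 8 without 1 pool. For average genotype, 0 was 4 with trend and robust variance, 20 with array weights, 1 with 1 probe set per gene, 1 with the mean per gene, 2 with the segment covariate and 0 to 47 without 1 pool, the highest without POR-null control pool 3. That pool also gave the highest counts for genotype on each diet, and the highest for quercetin in wild-type mice and on average came without wild-type quercetin pool 1. The replicate block, whose numbers do not pair the pools, called no goblet cell probe set. The correlation of Spdef with enterocyte markers was -0.85 with median centring, -0.81 with the mean per gene, -0.93 without the 3 arrays and -0.93 to -0.77 without 1 pool, with adjusted p of 0.0648, 0.119, 0.35 and 0.0972, and kept its call with quantile normalization. Fewer pools limit the smallest p that the relabellings within groups can give, so the last 2 of these adjusted p cannot show a loss of the relation. The number of arrays, 3 pools a group, limits the precision.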

Other observations

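Paneth cells, the antimicrobial secretory cells that share crypt progenitors with goblet cells, were read by 9 of 17 listed markers, and 0 passed the adjusted test in any comparison by limma. Their median difference for quercetin was 0.05 in wild-type mice, where 0 of 9 had an unadjusted p under 0.05 (8.72% of all probe sets), 0.18 in POR-null mice, where 3 of 9 did (4.02% of all), and 0.19 on average, where 5 of 9 did (7.82% of all). Clps, the colipase transcript, differed by 0.48 ± 0.10 (SE) for quercetin in POR-null mice with an adjusted p of 0.995, and differed by -0.50 ± 0.10 between POR-null and wild-type mice on control diet with an adjusted p of 0.4. Clps is also one of the pancreatic acinar markers, whose 11 measured genes had medians of 0.07, 0.09 and 0.06 in the same 3 quercetin comparisons. Pla2g2a, a secreted phospholipase, differed by 0.35 ± 0.11 for quercetin in POR-null mice. Among distal markers, Osr2 rose by 0.76 ± 0.11 on quercetin in wild-type mice (adjusted p = 0.032), the 1 gene called in any of the 16 companion lists. All 8 measured distal markers were above 0 in that comparison, where 56.8% of all genes were, and 6 of them had an unadjusted p under 0.05 (8.72% of all probe sets). For quercetin in POR-null mice 0 of the 8 were above 0 and 7 below, with a median of -0.20, and 2 had an unadjusted p under 0.05 (4.02% of all). No probe set was called for quercetin in wild-type mice when the segment score entered the fit, or when pool 2 or pool 3 of the wild-type quercetin group was dropped. Osr2 is one of the distal genes averaged in the segment score. The distal part of that score averaged -0.35 in wild-type control and 0.44 in wild-type quercetin pools. The fit with the score therefore cannot decide on the call of Osr2.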
